A study of Mus musculus with 4 samples.

Results

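The RIG-I-like receptors are cytosolic helicases that detect viral and other foreign RNA. Their genes were followed here in mouse melanoma cells after transfection of double-stranded DNA. The 5 genes described are Ifih1, Ddx58, Dhx58, Mavs and Rnf135, out of 22180 genes measured, and they were taken by name as the family's helicases with their adaptor and a ubiquitin ligase, with earlier results of these data known. Each was represented by 1 probe set, and 0 probe sets shared between genes held any of the 5. Levels were read from 4 Affymetrix gene arrays of B16-OVA, a melanoma line carrying an ovalbumin transgene. One group of 2 arrays came from mock transfected cells and the other group of 2 from cells transfected with AT90ES, a double-stranded DNA that was 90 base pairs long per the labels and was delivered with Lipofectamine 2000 for 6 hours. No genetic change other than the transgene is named. The treatment text of the mock arrays is word for word that of the AT90ES arrays and names the same DNA, lipid and time, and only the titles, source names and transfection labels separate the groups. What the mock cells received is therefore not settled by the labels, every difference below is between arrays labelled AT90ES and arrays labelled mock, and DNA and lipid effects cannot be told apart.

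Ddx58 encodes RIG-I, which binds short double-stranded RNA with phosphorylated ends, and Ifih1 encodes MDA5, which assembles along long double-stranded RNA. Both carry caspase recruitment domains that pass the signal on, whereas LGP2, the product of Dhx58, lacks these domains and tunes the other helicases. Rnf135 encodes Riplet, a ubiquitin ligase that modifies RIG-I bound to RNA. Mavs encodes the adaptor on the mitochondrial surface through which RIG-I and MDA5 activate kinases that switch on interferon and NF-kappaB target genes. The helicase genes are themselves known as interferon-stimulated genes. Cytosolic DNA rich in A and T can also reach the pathway, because RNA polymerase III copies it into RNA that RIG-I binds; the labels give no base composition for AT90ES.

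The 3 helicase genes were higher in AT90ES cells, in the order Ifih1, Ddx58 and Dhx58, while the adaptor and the ligase did not pass the test. The promoters of Ifih1 and Ddx58, the genes with the largest rises of the family, are shown because genes that respond to interferon often carry the interferon-stimulated response element, abbreviated ISRE, near their start. Promoters in RefSeq's table of build GRCm38.p6 matched 4 of the 5 genes by symbol, all but Dhx58. The core of the ISRE, GAAA and GAAA with any 2 bases between them, was searched on both strands, together with GGGA and CC with any 4 bases between them for NF-kappaB sites and TTCNNNGAA for STAT sites. In the 250 bases before the start, Ifih1, Ddx58, Mavs and Rnf135 held 0 matches to these 3 motifs, as they did in the 100 bases before the start. Over all 32851 promoters of the table, 2.98% held the ISRE letters, 17.6% the NF-kappaB letters and 7.02% the STAT letters in the 250 bases. The Ddx58 sequence held 1 match to GAAANGAAA, the ISRE letters with 1 base fewer between the repeats, a variant searched after the sequences were seen and present in 2.68% of promoters. That match, in capitals, lay 60 to 52 bases before the start. The 250 bases before the start of Ifih1 (chr2:62646256-62646505) and Ddx58 (chr4:40239826-40240075), each on the minus strand, read as follows.
Ifih1: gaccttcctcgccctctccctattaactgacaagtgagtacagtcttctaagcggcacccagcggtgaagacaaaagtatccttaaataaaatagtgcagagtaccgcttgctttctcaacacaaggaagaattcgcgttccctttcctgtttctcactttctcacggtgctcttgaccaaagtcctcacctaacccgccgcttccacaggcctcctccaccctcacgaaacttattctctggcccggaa
Ddx58: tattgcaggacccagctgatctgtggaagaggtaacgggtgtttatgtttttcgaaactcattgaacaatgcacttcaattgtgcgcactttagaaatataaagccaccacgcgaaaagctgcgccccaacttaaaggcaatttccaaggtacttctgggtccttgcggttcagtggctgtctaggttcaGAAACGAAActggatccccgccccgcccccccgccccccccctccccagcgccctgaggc

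When the window was widened to 300 bases, with 50 bases after the start, Ifih1 and Ddx58 each held 1 match to the ISRE letters and Mavs and Rnf135 held 0. This window was chosen after the sequences were seen, and 3.44% of all promoters held a match in it. The Ifih1 match covered bases 33 to 42 after the start on the gene's own strand, and the Ddx58 match covered bases 3 to 12 on the opposite strand. Windows of 26 bases around them, with the matched letters in capitals (chr2:62646206-62646231 for Ifih1 and chr4:40239806-40239831 for Ddx58, minus strand), read as follows.
Ifih1: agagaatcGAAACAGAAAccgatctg
Ddx58: tgaggcagTTTCGATTTCctatggcc
These matches describe the letters only, and binding was not measured. Of the genes that passed the test as higher, 73 had a promoter in the table, and 18 of these (24.7%) held the ISRE letters in the 300 bases, against 3.87% of the 16990 measured genes with a promoter. Ifih1 and Ddx58, whose sequences were seen before this window was chosen, are among the 18. In the 250 bases before the start, 14 of the 73 (19.2%) held the letters, against 3.4%. For the NF-kappaB letters in these 250 bases it was 23 of the 73 (31.5%), against 22.3%. For the STAT letters it was 8 (11%), against 7.82%.

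Ifih1, the gene of MDA5, had log2 levels of 4.50 and 5.22 on the mock arrays, against 10.56 and 10.53 after AT90ES. The groups lay far apart, and the lowest AT90ES value exceeded the highest mock value by 5.31. The mock arrays differed from each other by 0.72 and the AT90ES arrays by 0.03. The log2 fold change was 5.69 ± 0.24 (SE), which is 51.4-fold with a 95% interval of 34.0 to 77.9 and an adjusted p = 0.00137 in limma, a linear model that shares the spread between genes. Ifih1 ranked 3 of 22180 genes by fold change. Its starting level was close to background, taken as the 95th percentile of 1105 olfactory receptor genes on each array (4.85 to 5.07). Mock replicate 1 lay under this level and mock replicate 2 above it. With mock replicate 1 raised to that level, a check chosen after the data were seen, the rise was 42.2-fold.

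Ddx58, the gene of RIG-I, stood at 5.23 and 5.06 on the mock arrays, against 8.69 and 8.59 after AT90ES. Replicates differed by 0.17 in mock and 0.11 in AT90ES cells, and the groups did not overlap, with a gap of 3.35 between them. Both mock values were above the olfactory receptor level of their arrays, by a small margin. Ddx58 rose by 3.49 ± 0.13 on the log2 scale (SE), or 11.3-fold (95% interval 9.04 to 14.0, limma adjusted p = 0.000881). Over the 4 possible pairs of an AT90ES and a mock array the Ddx58 fold ranged from 10.2 to 12.4. For Ifih1 the fold was 39.7 and 40.4 against mock replicate 2, and no exact fold is given against mock replicate 1, where Ifih1 was under the olfactory receptor level.

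Dhx58, the gene of LGP2, had the smallest rise of the helicase genes. Its log2 levels were 5.62 and 5.45 on the mock arrays, against 7.09 and 7.22 after AT90ES. The gap between the groups, 1.47, was larger than the differences between replicates, 0.17 in mock and 0.13 in AT90ES cells. The log2 fold change was 1.62 ± 0.13 (SE), or 3.08-fold (95% interval 2.47 to 3.85, limma adjusted p = 0.0132). The call was lost in 3 of the 4 fits with an array removed: limma's adjusted p was 0.0553 when mock replicate 2 was absent, and 0.0841 and 0.107 when AT90ES replicates 1 and 2 were. It was also lost when every probe was tested separately (adjusted p = 0.117), and over all alternatives the adjusted p ranged from 2.15e-05 to 0.117. The 95% intervals of the 3 helicase genes did not overlap each other, but differences between their rises were not tested.

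**Figure D1:**
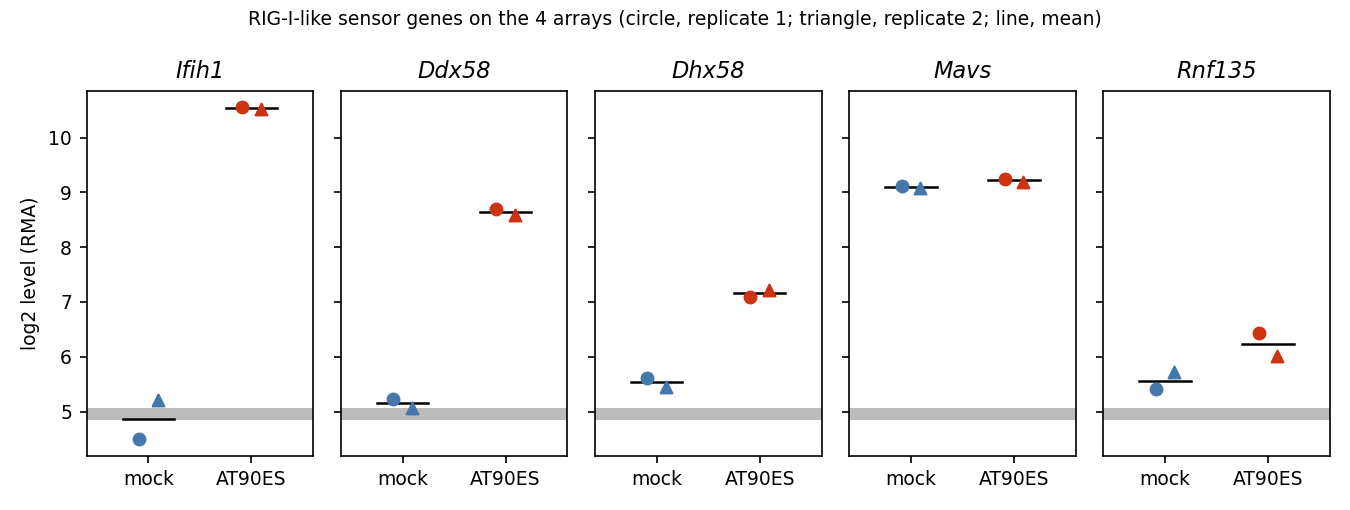
Log2 levels (vertical axis, RMA values) of the 5 genes on the mock arrays (blue) and AT90ES arrays (red), with circles for replicate 1, triangles for replicate 2, lines for group means and a grey band for the olfactory receptor level (4.85 to 5.07). Ifih1 went from a mean of 4.86 to 10.54, Ddx58 from 5.15 to 8.64 and Dhx58 from 5.53 to 7.16, while Mavs stayed between 9.08 and 9.24; levels of different probe sets are not comparable with each other.

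Mavs, the shared adaptor, was measured above background on every array. Its log2 levels were 9.11 and 9.08 on the mock arrays, against 9.24 and 9.19 after AT90ES. The AT90ES values were both above the mock values, but by a gap of 0.08, and 2203 genes, Mavs included, had a gap upward of at least that size. The log2 fold change was 0.12 ± 0.11 (SE, limma adjusted p = 0.806). The 95% interval ran from a fold of 0.894 to 1.32, so a change as large as that of Dhx58 lay outside it.

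Rnf135, the gene of the ligase Riplet, lay between these. It stood at 5.41 and 5.72 on the mock arrays, against 6.44 and 6.01 after AT90ES. Both AT90ES values were above both mock values, but the gap of 0.29 was smaller than the differences between replicates, 0.32 in mock and 0.43 in AT90ES cells. The log2 fold change was 0.66 ± 0.19 (SE), or 1.58-fold with a 95% interval of 1.14 to 2.21. It did not pass (limma adjusted p = 0.424, unadjusted p = 0.0151), and it did not pass under any alternative tried (adjusted p 0.0965 to 0.794). The fold over the 4 array pairs ran from 1.23 to 2.05. By rank of fold change Rnf135 was 260 and Mavs 4981 of 22180 genes.

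In all, 3 of the 5 genes passed as higher and 0 as lower, where 0.415% of all genes tested passed as higher and 0% as lower. At an unadjusted p under 0.05, 4 of the 5 were higher and 0 lower, against 4.5% and 4.59% of all genes. The number remained at 3 or dropped to 2 under every alternative, and Ifih1 and Ddx58 passed in each of them. All 5 genes had both AT90ES arrays above both mock arrays, which held for 17.7% of all genes, while 22.1% of all genes had both below. The median log2 fold change of the 5 genes was 1.62, that of Dhx58, and the median of all genes was -0.02. With 2 arrays against 2, the smallest two-sided p of an exact permutation test is 0.333, so the calls rest on limma's sharing of spread across genes. Whether the replicates came from separate cultures is not labelled, so the p-values speak only for the spread among these 4 arrays, and that spread may be technical.

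**Figure D2:**
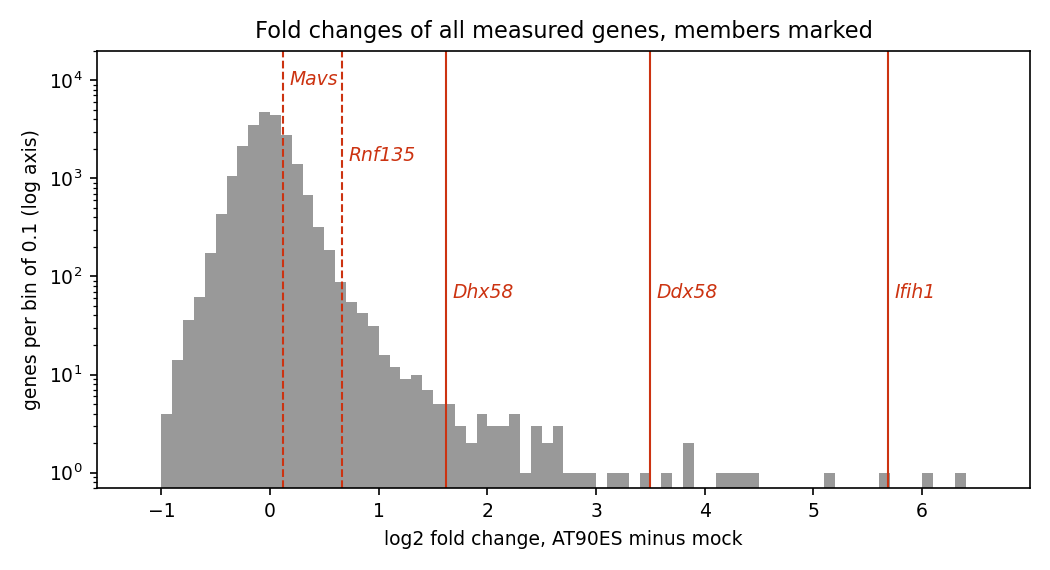
Number of genes (vertical axis, log scale) by log2 fold change, AT90ES minus mock (horizontal axis, bins of 0.1), for 22180 genes, with red lines at the 5 genes (solid, passed; dashed, not passed). Ifih1 at 5.69, Ddx58 at 3.49 and Dhx58 at 1.62 lie in the thin right tail, and Mavs at 0.12 lies in the bulk.

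The genes whose profile over the 4 arrays, relative to the mock mean, lay nearest to each risen helicase were found by Euclidean distance in log2 units. Nearest to Ifih1 were Ifit1 (distance 0.674), which encodes a protein that binds foreign RNA, and the chemokines Cxcl10 (0.915) and Ccl5 (1.04). Nearest to Ddx58 were Parp14 (0.458), an ADP-ribosyltransferase, Trp53inp1 (0.540), a p53 target, and Gbp3 (0.697), an interferon-inducible GTPase. Nearest to Dhx58 were Slc19a2 (0.0956), a thiamine transporter, Igtp (0.194), an interferon-inducible GTPase, and Cd274 (0.201), which encodes PD-L1. Gbp3 and Igtp were under the olfactory receptor level on both mock arrays, so the size of their rise, and with it their distance and place in this order, is uncertain. Ifih1 was under that level on mock replicate 1, so the distances and order of its neighbours are uncertain too. With 4 arrays in 2 groups, this likeness reflects mainly the size of the rise.

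Cofactors and activating modifiers of the receptors and of MAVS had 3 of 17 measured genes higher, 0 lower and 14 not passed, with a median log2 fold change of -0.04. Oasl1, a relative of the OAS enzymes that in mouse is known to restrain translation of Irf7, and whose human relative OASL enhances RIG-I signalling, stood at 5.08 and 4.92 on the mock arrays and at a mean of 7.95 ± 0.07 after AT90ES (SD, n = 2). It rose by 2.95 ± 0.13 on the log2 scale (SE, limma adjusted p = 0.00137). Ddx60, a helicase described as a cofactor of RIG-I, stood at 3.76 and 3.51 and then at 6.11 and 5.62. Its log2 fold change was 2.23 ± 0.20 (SE, limma adjusted p = 0.0189). Both mock values of Ddx60 were under the olfactory receptor level, and with them raised to that level the fold between the group means was 1.81. The Ddx60 call was lost without mock replicate 2 (adjusted p = 0.0604) and without AT90ES replicate 1 (0.0663), within a range of 1.5e-05 to 0.139 over the alternatives. Zc3hav1, which encodes the zinc finger antiviral protein, stood at 9.18 and 9.19 and then at 10.31 and 10.31, a rise of 1.13 ± 0.11 (SE, limma adjusted p = 0.0286). Removing any 1 of the 4 arrays ended its call (limma adjusted p 0.129 to 0.228). In the 250 bases before the start, the ISRE letters occurred at 2 places in the Ddx60 promoter and at 0 in those of Oasl1 and Zc3hav1. The Oasl1 and Zc3hav1 promoters each held 1 match to the NF-kappaB letters. Of measured genes with a promoter, 3.4% held the ISRE letters and 22.3% the NF-kappaB letters in that window. Trim25, a ubiquitin ligase long linked to RIG-I, was under the olfactory receptor level on all 4 arrays, with a log2 fold change of 0.15, and it is named here after its values were seen.

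Inhibitors of the receptors and of MAVS had 0 of 17 genes higher and 0 lower in limma, with a median of 0.05. At an unadjusted p under 0.05, 2 of the inhibitors were higher and 0 lower, against 4.5% and 4.59% of all genes. The 2 were Atg12, an autophagy conjugation protein, at 0.45, and Marchf5, a mitochondrial ubiquitin ligase, at 0.37, both named after their values were seen. Marchf5 passed with an intensity trend in the spread (adjusted p = 0.00581). The most highly measured genes of the list were Pcbp2, an RNA-binding protein that promotes degradation of MAVS, with a log2 fold change of 0.00, and Tax1bp1, an adaptor of ubiquitin-editing enzymes, at 0.16.

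Signalling proteins and transcription factors downstream of MAVS had 0 of 16 measured genes higher and 0 lower, with a median of 0.07. Traf3, Ripk1, Chuk and Nfkb1 were on this list but were not analysed, for want of a probe with 1 symbol, so these counts do not cover them. At an unadjusted p under 0.05, 2 of the measured genes were higher and 0 lower, against 4.5% and 4.59% of all genes. Rela, the p65 subunit of NF-kappaB, had log2 levels of 9.53 and 9.76 on the mock arrays, against 10.11 and 10.20 after AT90ES. Its log2 fold change of 0.51 did not pass (limma adjusted p = 0.375, 0.00231 to 0.742 under other settings, where an intensity trend made it pass). Irf7, the interferon-amplifying factor, was the other at an unadjusted p under 0.05, with 0.35, and is named after its value was seen. Sike1, which restrains the kinases TBK1 and IKK-epsilon, stood at -0.05. Ifnb1, a direct target of the pathway, was measured at 3.15 and 3.29 on the mock arrays, against 2.89 and 3.05 after AT90ES, under the olfactory receptor level on each of them, and did not pass (limma adjusted p = 0.632).

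Other DExD/H-box helicases that bind or process double-stranded RNA had 0 of 12 genes higher and 0 lower, and the counts were also 0 with an intensity trend and at an unadjusted p under 0.05. All 12 were above the olfactory receptor level on the 4 arrays, and their log2 fold changes ran from -0.22 to 0.22 with a median of -0.08. Dhx9, a nuclear RNA helicase, stood at -0.09 and Ddx6, a helicase of mRNA decay, at 0.20. RNA polymerase III subunits had 0 of 10 measured genes higher and 0 lower, with a median of 0.06. At an unadjusted p under 0.05, 1 subunit was lower and 0 higher, against 4.59% and 4.5% of all genes. The lower one was Polr3g, an alternative subunit of stem and tumour cells, at -0.39, named after its value was seen. The catalytic subunits Polr3a and Polr3b stood at 0.10 and 0.06.

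**Figure D3:**
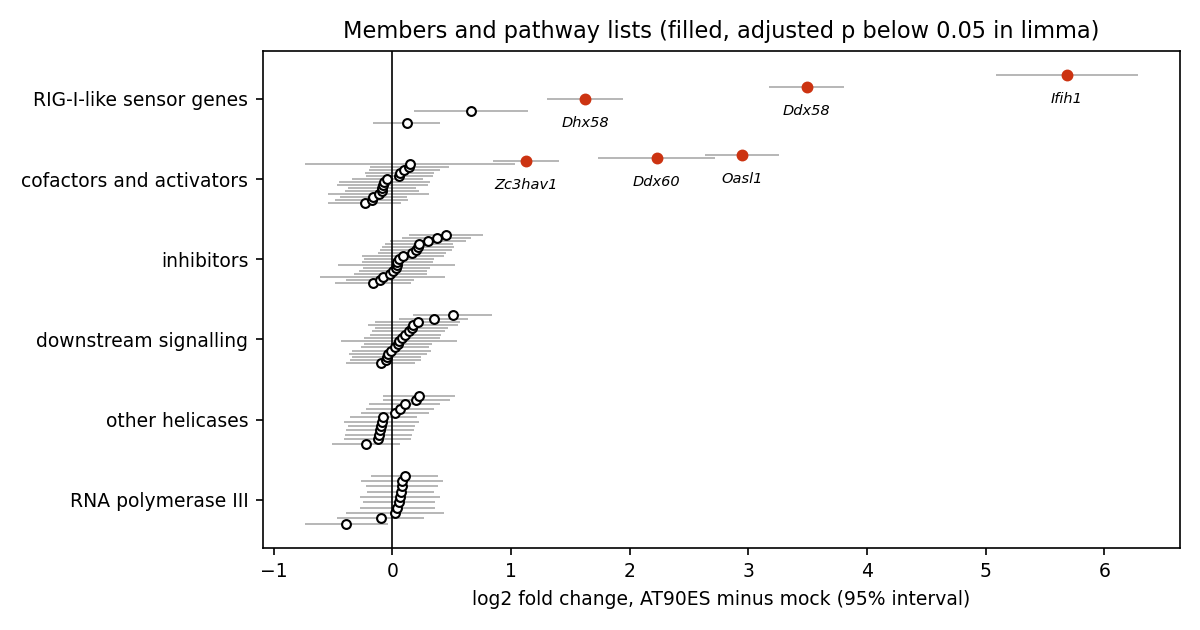
Log2 fold change, AT90ES minus mock (horizontal axis), with its 95% interval for each measured gene of the family and of 5 pathway lists, filled red where limma's adjusted p was under 0.05. The 3 helicases and Oasl1, Ddx60 and Zc3hav1 are filled, and inhibitors, downstream signalling, other helicases and RNA polymerase III hold no filled point.

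**Figure D4:**
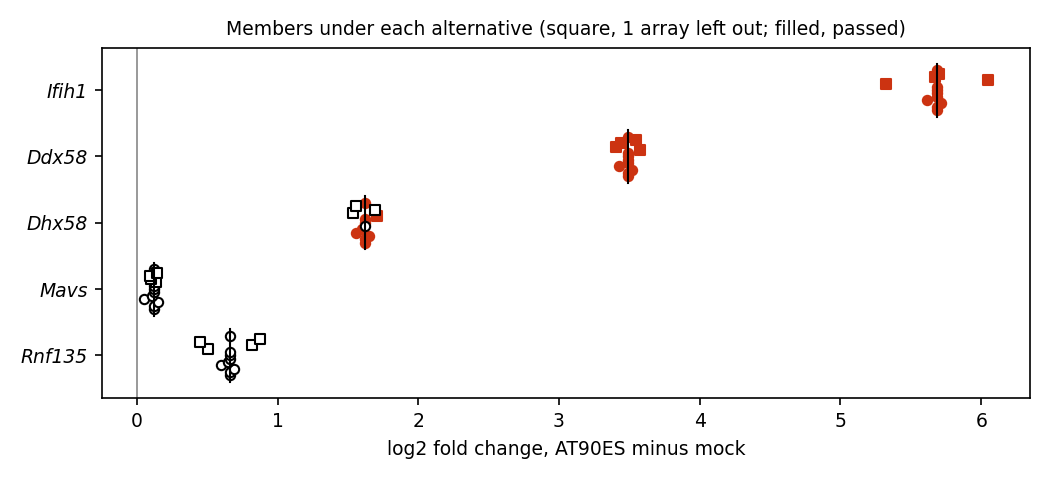
Log2 fold change (horizontal axis) of the 5 genes under each tested alternative, with a line at the reported value, squares where 1 array was left out and filled symbols where the adjusted p was under 0.05. Ifih1 ran from 5.32 to 6.05 and Ddx58 from 3.41 to 3.58, always filled, and Dhx58 from 1.54 to 1.71, open in 4 places.

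To check the labelled cell type, markers were read on the same arrays, and 8 of 8 pigment cell markers lay above the olfactory receptor level on all 4 arrays, Tyrp1, Dct and Pmel among them. Such levels were reached by 4 of 10 markers of myeloid cells (Cd68, Csf1r, Lyz2 and Fcer1g) and 0 of 8 of lymphocytes. Among markers of fibroblasts and endothelium 3 of 10 reached them (Col1a1, Col1a2 and Cdh5). Ptprc, the pan-leukocyte marker, was under the olfactory receptor level on each array. In limma 0 markers of these 4 lists passed. At an unadjusted p under 0.05 there were 0 higher and 4 lower (Mitf, Cd3g, Cd4 and Klrb1c, named after their values were seen). Of all genes, 4.5% were higher and 4.59% lower at that p. Cd3g, Cd4 and Klrb1c were under the olfactory receptor level on all 4 arrays. Median log2 fold changes were -0.05 for pigment cell, -0.13 for myeloid, -0.13 for lymphocyte and 0.01 for fibroblast and endothelial markers. In bulk RNA a change in the share of a cell type and a change in RNA per cell cannot be told apart.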

How the data were processed

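Total RNA (300 ng per array) was measured on 4 arrays. The authors' deposited log2 values came from RMA (named in the submitters' processing notes), which corrects background, equalises array distributions and summarises probe sets; its software and settings are not given in the sources used here. Such scaling makes each change relative to the other genes. Of 41345 probes, 23521 had 1 gene symbol, 1814 several and 16010 none in GEO's platform annotation; 23328 were matched by gene ID to RefSeq (GRCm38.p6). The brightest probe stood for a gene. AT90ES was compared with mock over 22180 genes in limma 3.58.1 (R 4.3.3; lmFit, eBayes, no filter), two-sided, with Benjamini-Hochberg adjustment and a threshold of 0.05. The fit was also run on simulated data with independent normal noise of the fitted spread. That check meets the model's assumptions by design, so it cannot show whether the replicates here are independent. The number of arrays limits precision. Members and lists were chosen with earlier results of these data known. Named genes were the 5 members, list genes past the threshold (failing any, the 2 of highest mean level), Ifnb1, and the 3 genes nearest each risen member. Of the listed genes, 9 were not analysed here for want of a probe with 1 symbol. Motifs were searched in RefSeq promoters. Arrays were also centred on the mean of 8 measured reference genes, of which 0 passed (median log2 fold change 0.05).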

Additional observations from a re-analysis of the deposited data

How the results depend on the processing

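For the 5 genes, 61 of 65 tested comparisons with an alternative stayed on the same side of the threshold, and no direction changed. The exceptions were all of Dhx58, at 1.62 with every probe tested separately (adjusted p = 0.117) and 1.54 to 1.71 over the fits that left out an array, which take a lone array to vary as much as the remaining group. For named list genes 144 of 155 did. The number of all genes higher, 92 in the reported fit, was 431 with an intensity trend, 165 with dim genes left out, 172 with arrays centred on their median, 30 with every probe tested separately and 32 to 47 without 1 array (47 and 44 without mock replicates 1 and 2, 32 and 35 without AT90ES replicates 1 and 2). The number lower, 0 in the reported fit, was 162, 6 and 4 in the first 3 of these. Cofactors and activators higher, 3 in the reported fit, were 1 with every probe tested separately, 1 with a crossed pairing and 1 to 2 without 1 array. With an intensity trend 1 inhibitor and 1 signalling gene were higher. The causes were not tested. The replicate block gave 85 genes higher and 0 lower and changed none of the calls of the 5 genes. Deviations of same-numbered arrays correlated at -0.222. With 2 arrays per group this is a single value, with the sign reversed for the crossed pairing (0.222). It therefore cannot decide whether the numbers pair the arrays. The crossed pairing, added after the data were seen, gave 59 higher and 0 lower. Of the named genes that rose, Ddx60, Gbp3 and Igtp were under the olfactory receptor level on both mock arrays and Ifih1 and Oasl1 on 1, which limits the size of their rises.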

Other observations

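Trim65, a ubiquitin ligase of MDA5, was on the list of cofactors but had no probe of its own in the comparison. The probe set that the annotation assigns to both Trim65 and Trim47 had a log2 fold change of -0.39 (limma adjusted p = 0.727 with every probe tested separately). A probe set shared by Traf5 and Rcor3 stood at -0.10 (limma adjusted p = 0.915), and the probe set of Traf5 alone at 0.05, under the olfactory receptor level on all 4 arrays.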
